A study of Mus musculus with 12 samples.

Results

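Cholesterol is built in the endoplasmic reticulum from acetyl-CoA by the mevalonate and sterol branches of one pathway. The 8 genes described here encode enzymes along that route: Hmgcs1, Idi1, Fdps, Fdft1, Sqle, Lss, Cyp51 and Dhcr7. They were chosen by gene symbol, and all 8 were found among the 45801 gene IDs listed in the blastocyst table (45706 IDs) or the embryonic stem (ES) cell table (13009 IDs). Although the set is named for synthesis and uptake, every member is a synthesis enzyme, and genes of uptake are described from a separate list.

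RNA was sequenced from Dis3l knockout and wild-type mouse material. Its product, DIS3L, is a nuclease of the exosome in the cytoplasm, which digests RNA molecules from the 3′ side. By the labels there are 12 samples, 3 in each of 4 groups: knockout blastocysts, wild-type blastocysts, knockout ES cells and wild-type ES cells. The blastocysts were collected 96 h after hCG, the hormone given to induce ovulation, and their libraries were made from single embryos by Tn5 tagmentation of cDNA. The ES cell lines were derived from blastocysts on inactivated mouse embryonic fibroblasts, were kept in medium with serum and the cytokine LIF, and were sequenced as stranded libraries after removal of ribosomal RNA. The labels do not say whether the 3 ES cell samples of a genotype are separate lines, so a p-value there measures the spread between samples that may be technical. A fibroblast feeder layer limits the ES cells as a pure model, and in bulk samples fewer cells of a type cannot be told apart from less RNA per cell. The question was which transcripts differ between the genotypes.

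All fold changes, standard errors, p-values and adjusted p-values called the authors' or DESeq2's come from the authors' deposited table for that material, which holds no value per sample and no statement of the direction of the comparison. Whole reads per library were read back from the authors' means, which gave 6 libraries for the blastocysts and 4 for the ES cells, fewer than the 6 ES samples in the labels. Each library is placed only on the positive side of the comparison (where a positive log2 fold change means higher) or on the negative side, and no library is assigned to a genotype. The numbers of libraries serve as names and carry no order. Recovered reads per library ran from 829333 to 1936830 in blastocysts and from 933259 to 1527881 in ES cells, which covers genes with a mean up to 500 and 1000 normalised reads. A normalised read count is the reads divided by the library's size factor, from 0.695 to 1.62 in blastocysts and from 0.759 to 1.25 in ES cells. Dis3l itself was low in blastocysts, with 18.6, 8.12 and 0 normalised reads on the positive side against 6.18, 4.46 and 11.5 on the negative side (authors' log2 fold change 0.28, SE 1.91, DESeq2 adjusted p = 0.997). In ES cells Dis3l stood at 11.2 and 10.5 on the positive side against 37.1 and 37.7 on the negative side (authors' log2 fold change -0.88, SE 0.33, DESeq2 adjusted p = 0.445). The sides thus lay apart for the targeted gene in ES cells and overlapped in blastocysts. Of the marker genes, all 9 pluripotency, 7 trophectoderm and 7 primitive endoderm genes had a mean of at least 50 in blastocysts, while 6 of 8 fibroblast genes, among them Col1a1, Col1a2 and Dcn, were at 0. All 9 pluripotency genes also had a mean of at least 50 in ES cells. There all 8 fibroblast genes were detected, with a summed level of 261 and 233 normalised reads in the positive libraries against 271 and 1575 in the negative ones, so negative library 2 stands apart.

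The enzymes act in a fixed order. Hmgcs1 makes HMG-CoA, Idi1 interconverts the isoprenoid building blocks, Fdps joins them into farnesyl diphosphate, and Fdft1 condenses farnesyl diphosphate into squalene. Sqle oxidises squalene, Lss closes it into lanosterol, Cyp51 removes a methyl group from lanosterol, and Dhcr7 carries out a last reduction that yields cholesterol. Transcription of these genes is known to be driven by SREBP2, a membrane-bound factor released from the endoplasmic reticulum when sterols are low, which binds sterol regulatory elements together with NF-Y and Sp1. Cells kept in serum can also take up cholesterol from lipoproteins.

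The upstream sequences of 5 of the 8 genes were available from RefSeq (build GRCm38.p6, 7 windows for Hmgcs1, Idi1, Lss, Cyp51 and Dhcr7). The 250 bases before each start site were searched on both strands for 3 motifs, none of which overlaps another in these windows: the core of a sterol regulatory element (TCACNCCAC), the NF-Y box (CCAAT) and the GC box bound by Sp1 (GGGCGG). The sterol element core was found in 1 of the 7 windows, that of Hmgcs1, and in 1.05% of all 32851 windows of that length. Variants of this core were not searched, so a window without a match may still hold a sterol regulatory element. An NF-Y box was found in 5 of the 7 windows, against 33.8% of all windows, and a GC box in 6 of the 7, against 32.7%. Each gene had both in at least 1 window, but Dhcr7 has 3 windows and so more chances of a match. By the deposited gene coordinates, the NF-Y and GC boxes of Idi1 lie inside the gene, within its first 105 bases. The Dhcr7 window with NF-Y boxes, from chr7:143829964, also lies inside its gene, which starts at 143823145. A match is a description of letters and not of a bound site, and these data hold no binding measurement. Hmgcs1 is shown because it carries all 3 motifs, and Cyp51 because it has the widest gap between the sides in blastocysts. Capitals mark motif matches on either strand. The Hmgcs1 window is chr13:119690101-119690350 on the plus strand, with the sterol element core 137 bases before the start site. The Cyp51 stretch is chr5:4104747-4104947 on the minus strand and leaves out the 49 bases that the deposited gene coordinates place inside the gene, which hold its NF-Y box.
Hmgcs1: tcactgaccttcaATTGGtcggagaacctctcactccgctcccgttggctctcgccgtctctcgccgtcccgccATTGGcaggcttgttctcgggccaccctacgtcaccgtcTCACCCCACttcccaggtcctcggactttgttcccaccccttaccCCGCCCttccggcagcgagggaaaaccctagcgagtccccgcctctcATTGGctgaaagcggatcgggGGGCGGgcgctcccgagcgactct
Cyp51: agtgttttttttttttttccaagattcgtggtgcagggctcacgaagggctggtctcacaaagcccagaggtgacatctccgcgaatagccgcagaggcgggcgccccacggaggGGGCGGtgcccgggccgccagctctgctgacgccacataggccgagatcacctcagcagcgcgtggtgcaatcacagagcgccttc

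None of the 8 enzymes passed the authors' test in blastocysts (0 of 8 with an adjusted p under 0.05, DESeq2). Across all genes, 0.0986% of 15209 tested passed in that table. At an unadjusted p under 0.05, 1 of 8 members was called, Cyp51, against 6.21% of all tested genes. Their log2 fold changes ran from -0.42 to 1.22, 5 positive and 3 negative, with a median of 0.25 beside -0.04 for all tested genes. A limma fit on the recovered reads called 0 of 8 at an adjusted p under 0.05, against 0.318% of 14781 genes, and 1 of 8 unadjusted, again Cyp51, against 6.75%.

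Hmgcs1, at the entry to the mevalonate branch, had 468, 351 and 226 normalised reads in the positive libraries and 127, 410.3 and 224 in the negative libraries of the blastocysts. Highest and lowest values lay on opposite sides, but the other libraries mixed. Its log2 fold change was 0.46 (SE 0.49, DESeq2 adjusted p = 0.859), with a 95% interval from -0.49 to 1.41. Hmgcs1 lies on chromosome 13, from 119690462 to 119708086 on the plus strand of GRCm38 in that table.

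Idi1 and Fdps, which handle the isoprenoid units, had the lowest levels of the 8 in single embryos. Reads of Idi1 came to 64, 16 and 0 on the positive side against 52, 36 and 0, so each side held a library with none. A count of 0 allows up to 3 reads, or 3.43 normalised reads in positive library 3 and 4.32 in negative library 3, for counting error only. That limit takes reads as independent, whereas reads in blastocysts were mostly even in number, so it may be too low. For Fdps the reads were 35, 4 and 26 against 3, 31 and 0, which again mixed the sides. The log2 fold changes were -0.22 for Idi1 (SE 1.65, DESeq2 adjusted p = 0.997) and 0.69 for Fdps (SE 1.66, DESeq2 adjusted p = 0.982). For Fdps the log2 ratio of the reads ran from 0.11 (without negative library 3) to 4.40 (without negative library 2) when 1 library was left out, and limma gave 1.77 (adjusted p = 0.815). With intervals from -3.46 to 3.02 and from -2.57 to 3.95, changes of several fold in either direction could not have been detected for these genes.

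Both genes also have near-identical copies, so their counts are uncertain. The processed pseudogene Gm13502 matches Idi1 at 100% over 684 bases, and Gm3571 matches Fdps at 98.9% over 1062 bases. Gm3571 had an authors' mean of 25.2 normalised reads in blastocysts, above the 15.9 of Fdps itself, while Gm13502 had 0.576. Fdps further shares 1124 of its 4208 exon bases, or 26.7%, with the annotated gene Gm43738 on the same strand. Gm43738 has no value in blastocysts, but had an authors' mean of 37.5 normalised reads in ES cells, above the 32.7 of Fdps there. How reads matching several genes were handled is not given in the sources used here.

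Fdft1, the first enzyme committed to sterols, had 157, 129 and 135 normalised reads in the positive libraries of the blastocysts and 157, 156 and 224 in the negative ones, so the sides overlapped at their edges. The log2 fold change was -0.35 (SE 0.46, DESeq2 adjusted p = 0.915). Of the exon bases of Fdft1, 774 lie opposite exons of Ctsb, a lysosomal protease gene with a blastocyst mean of 508 normalised reads. The tagmentation libraries are not described as stranded, so reads of Fdft1 and Ctsb cannot be told apart there.

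Sqle, which catalyses the oxygen-requiring entry into the sterol branch, had the highest level of the 8 in blastocysts. The gene lies on chromosome 15, from 59315077 to 59331192 on the plus strand of GRCm38. Positive libraries held 434, 485 and 818 normalised reads and negative libraries 182, 669 and 365. The second negative library thus lay above all positive libraries but the third. Its log2 fold change was 0.52 (SE 0.46, DESeq2 adjusted p = 0.811).

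Lss, the cyclase that forms lanosterol, spread widely within each side, from 65.0 to 238 normalised reads in the positive libraries and from 79.2 to 357 in the negative ones. Its log2 fold change was -0.42 (SE 0.64, DESeq2 adjusted p = 0.942). Leaving out negative library 3 turned the log2 ratio of the reads to 0.32.

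Cyp51, the lanosterol demethylase, was the one member whose sides did not overlap in blastocysts. It lies on chromosome 5, from 4081145 to 4104746 on the minus strand of GRCm38. It had 199.9, 254 and 295 normalised reads (280, 250 and 258 reads) in the positive libraries and 37.1, 189.5 and 94.9 (60, 170 and 66 reads) in the negative ones. All 3 positive libraries lay above all 3 negative libraries, though positive library 1 and negative library 2 were close. Among tested genes with recovered reads, 9.83% had sides that did not overlap, so 1 of 8 is near that share. The authors' log2 fold change was 1.22 (SE 0.58, unadjusted p = 0.0350, DESeq2 adjusted p = 0.769), a fold of 2.33 with a 95% interval on the log2 scale from 0.09 to 2.36. Markers of cell type were compared between the same libraries. At an unadjusted p under 0.05, 3 of 9 pluripotency genes (Nanog, Pou5f1 and Tdgf1) were called, all 3 negative, and 3 of 7 trophectoderm genes (Gata3, Krt8 and Krt18), 1 positive and 2 negative, beside 6.21% of all tested genes, and 0 passed the adjusted test (DESeq2). Of 6 tested primitive endoderm genes, 0 were called. The 8 pluripotency genes with recovered reads summed to 1860.3, 961 and 902 normalised reads in the positive libraries against 2176, 1857 and 2512. Positive library 1 thus lay just above negative library 2, and the sides overlapped. The part of these markers in the Cyp51 difference was not tested. An exact two-sided permutation test over the 6 libraries gave p = 0.1, the smallest that 3 against 3 allows. By limma the log2 change was 1.48 (adjusted p = 0.252). The log2 ratio of the reads was 0.81 without negative library 1 and 1.92 without negative library 2.

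Dhcr7, the reductase at the end of the pathway, had 385, 258 and 258 normalised reads on the positive side against 259.7, 330.0 and 293. The sides overlapped, and the log2 fold change of 0.03 (SE 0.38, DESeq2 adjusted p = 0.998) was the nearest to 0 of the 8 genes in blastocysts. Its 95% interval ran from -0.71 to 0.77.

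**Figure D1:**
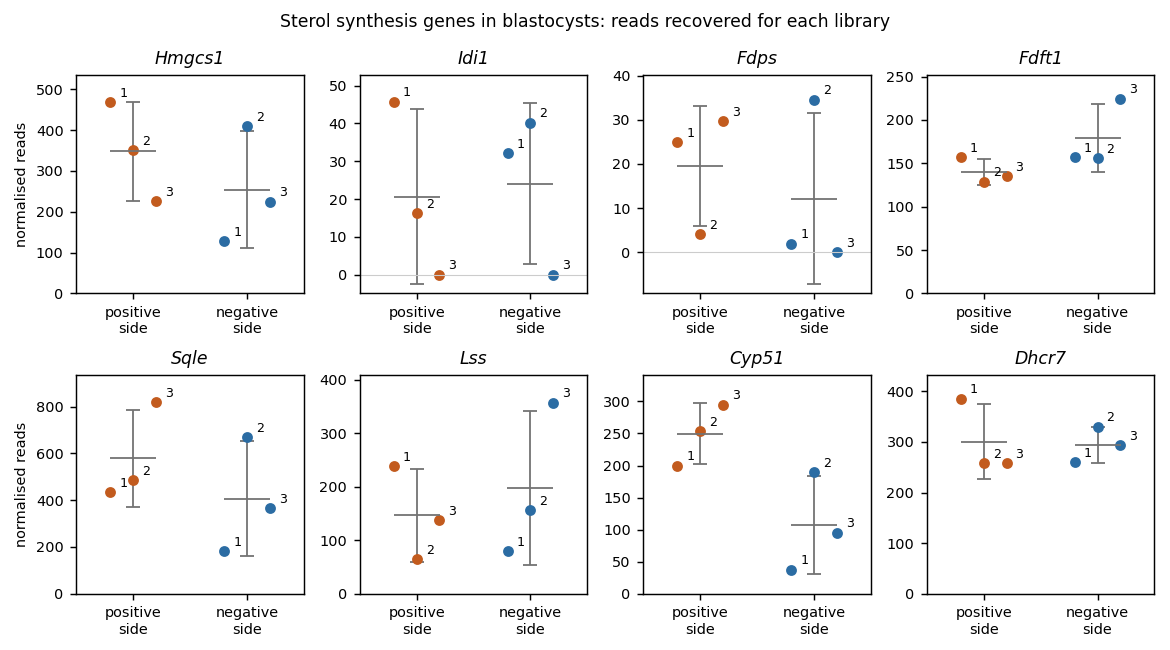
Normalised reads (vertical axes, linear) of the 8 sterol synthesis genes in the 6 blastocyst libraries, as points numbered within each side, with the mean as a bar and the SD as whiskers. Only for Cyp51 do all 3 positive libraries (199.9 to 295) lie above all 3 negative libraries (37.1 to 189.5).

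Several of these genes were low together in 1 library. Summed over the 8 genes, the positive libraries held 1954, 1562 and 1899 normalised reads and the negative libraries 876, 1986 and 1559. Negative library 1 had the lowest value of all 6 for 3 genes, Hmgcs1, Sqle and Cyp51, and positive library 2 likewise for 3, Fdft1, Lss and Dhcr7. The median log2 deviation of the 8 genes from their own mean was -1.17 in negative library 1 and -0.26 in positive library 2, beside -0.05 in each for all genes with a mean of at least 50. Of the fatty acid synthesis genes with recovered reads, the median deviation in negative library 1 was -0.92, but these genes did not move together. Acaca (56.9 normalised reads) and Fads1 (4.95) had their lowest value of all 6 libraries there, while Acss2 (143) and Elovl5 (404) had their highest. Fads2 had a mean of 1.11, and Acly, Elovl6, Fasn, Me1, Scd1 and Scd2 had no recovered reads. The other sterol enzymes had a median of -0.10 in negative library 1, and the genes of sterol sensing with recovered reads 0.03. Fdft1, Dhcr7 and Idi1 were not low there, at 157, 259.7 and 32.2 normalised reads. Negative library 1 was the deepest, with 1936830 reads recovered, but did not have the most genes with a read. It had a read for 11299 of 16120 genes, against 12104, 11682 and 10061 in the positive libraries. Negative libraries 2 and 3 had a read for 11416 and 10828. Leaving out each library in turn gave log2 ratios of reads for Hmgcs1 from 0.14 (without negative library 1) to 0.99 (without negative library 2). For Sqle the ratios ran from 0.16 to 1.08 without the same libraries. The median over the 8 genes was 0.09 without negative library 1, and ran from -0.003 (without positive library 1) to 0.67 (without negative library 2). Why negative library 1 is low was not tested.

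**Figure D2:**
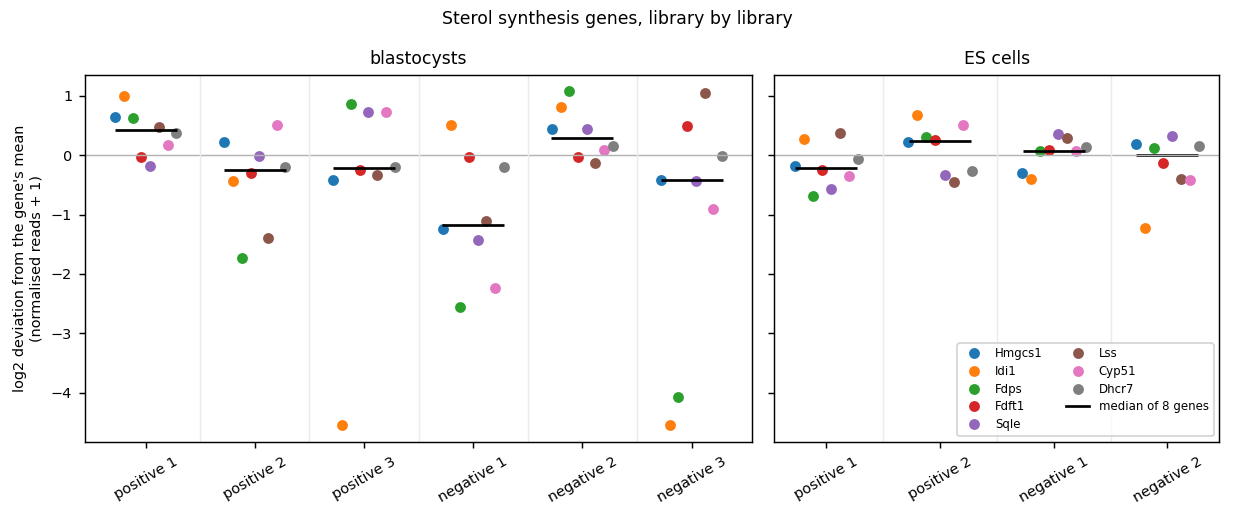
Log2 deviation of each of the 8 genes from its own mean (vertical axis, on normalised reads plus 1) in each library of blastocysts and ES cells, with black bars for the median of the 8 genes. The median lies at -1.17 in negative library 1 of the blastocysts and between -0.22 and 0.24 in the 4 ES libraries.

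In ES cells too, none of the enzymes passed the authors' test (0 of 7 with an adjusted p, DESeq2), against 0.261% of 10739 tested genes. Dhcr7, with a mean of 3.37 normalised reads, has no adjusted p in the authors' deposited table. At an unadjusted p under 0.05, 1 of 7 was called, Sqle, against 5.62% of all tested genes. The log2 fold changes, which appear shrunken towards 0 in this table, had a median of 0.03 beside -0.0001 for all tested genes, with 5 of 7 positive and 2 negative. By limma 0 of 8 passed an adjusted p under 0.05, against 0.101% of 12862 genes, and 1 of 8 unadjusted, again Sqle, against 9.24%, so 1 of 8 is near that share.

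Sqle was the member with the smallest p in ES cells. It had 54.3 and 64.5 normalised reads (68 and 49 reads) on the positive side against 105 and 101 (110 and 105 reads) on the negative side. The libraries of each side were close to each other and the sides lay apart, as they did for 3 of the 8 members and for 40.4% of tested genes with 2 libraries against 2. The authors' log2 fold change was -0.59 (SE 0.29, unadjusted p = 0.0410, DESeq2 adjusted p = 0.856), and the log2 ratio of the reads was -0.79. An exact two-sided permutation test gave p = 0.333, the smallest that 2 against 2 allows, and limma gave an adjusted p = 0.376. Leaving out any 1 library kept the ratio between -0.92 and -0.68. Without negative library 2, the library with the high fibroblast genes, the ratio was -0.82. The 6 mitochondrial genes with recovered reads summed to 1715 and 1693 normalised reads in the positive libraries against 1113 and 1214. They too lay apart, but higher on the positive side. Pluripotency genes with recovered reads (8 genes) summed to 3931 and 3193 against 4983 and 4347, so the sums lay apart in the direction of Sqle. At an unadjusted p under 0.05 (DESeq2), however, 0 of 9 pluripotency genes were called in ES cells, beside 5.62% of all tested genes. Called were 2 of 8 fibroblast genes (Col1a1 and Lum, negative), 1 of 4 primitive endoderm genes (Col4a1, negative) and 1 of 3 trophectoderm genes (Tfap2c, positive). Of these markers, 0 passed the adjusted test. Trophectoderm and primitive endoderm sums overlapped between the sides. Genes beyond the limit of 1000 mean normalised reads enter none of these sums. The part of the fibroblast, mitochondrial and pluripotency genes in the Sqle difference was not tested.

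Idi1 also lay apart, at 12.8 and 17.1 normalised reads on the positive side against 7.61 and 3.87 on the negative side. That rests on 16, 13, 8 and 4 reads. The log2 ratio of the reads was 1.38 and the authors' shrunken value 0.43 (SE 0.31, DESeq2 adjusted p = 1.00).

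Dhcr7 was the third gene whose sides did not overlap, but with 4 and 2 reads against 4 and 4 it was barely detected in ES cells. Its authors' log2 fold change was -0.06 (SE 0.24). Given 2 to 4 reads per library, no difference of moderate size was detectable.

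The remaining 5 enzymes overlapped between the sides in ES cells. Hmgcs1 had 105 and 138 normalised reads against 97.0 and 136 (log2 fold change 0.04, SE 0.28). Fdps had 20.0 and 40.8 against 34.2 and 35.8 (log2 fold change -0.13, SE 0.33), and Fdft1 had 49.5 and 71.1 against 62.8 and 54.1 (log2 fold change 0.02, SE 0.31). For each of these, the SD of the more variable side was larger than the difference between the sides' means. The count of Fdps is uncertain here too, because of the exon bases it shares with Gm43738.

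Lss stood at 61.5 and 34.2 against 58.0 and 35.8 normalised reads, so each side held a high and a low library (log2 fold change 0.03, SE 0.32). Cyp51 had 67.9 and 125 against 91.3 and 64.7 (log2 fold change 0.21, SE 0.30, with an interval from -0.38 to 0.80). These 5 genes each had a DESeq2 adjusted p of 1.00. The 8 genes summed to 374 and 494 normalised reads on the positive side against 459 and 436 on the negative side, which overlap.

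**Figure D3:**
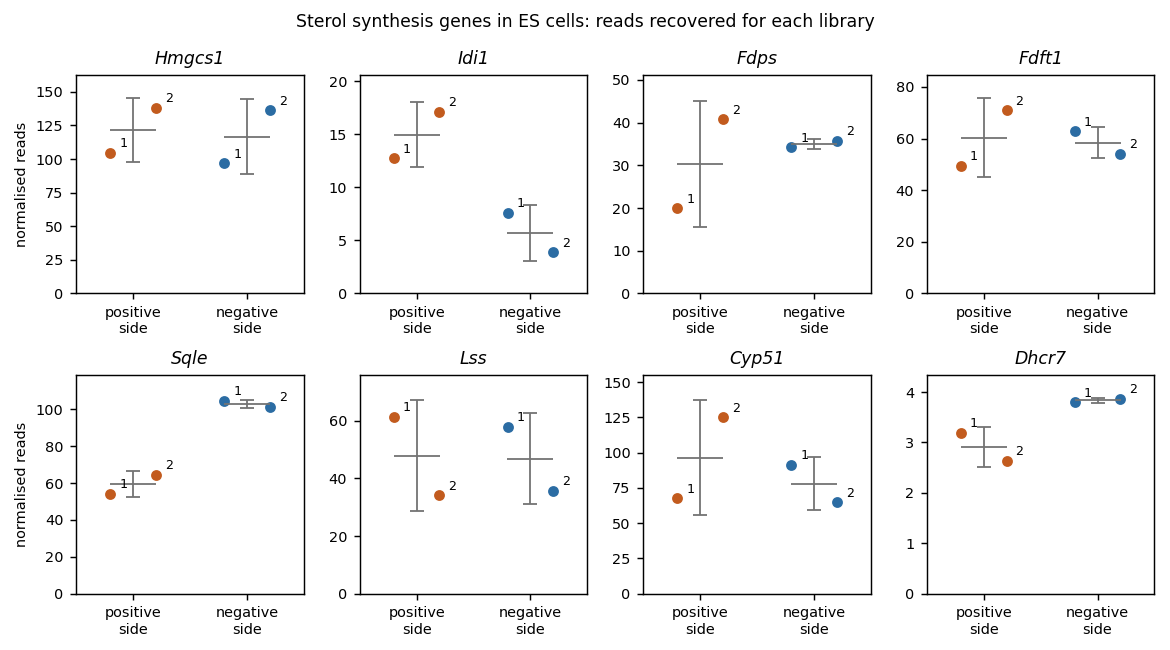
Normalised reads (vertical axes, linear) of the 8 sterol synthesis genes in the 4 ES cell libraries, 2 on each side of the comparison, with the mean as a bar and the SD as whiskers. Sqle lies lower on the positive side (54.3 and 64.5 against 105 and 101), and Dhcr7 is near 3 normalised reads throughout.

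Cyp51 and Sqle, the genes with the smallest p in each material, can be set side by side. Cyp51 had an authors' log2 fold change of 1.22 in blastocysts and 0.21 in ES cells. Sqle had 0.52 in blastocysts and -0.59 in ES cells, opposite in sign. The difference between materials was not tested, because the tables were normalised separately, the directions of both comparisons are unstated and the ES values are shrunken.

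**Figure D4:**
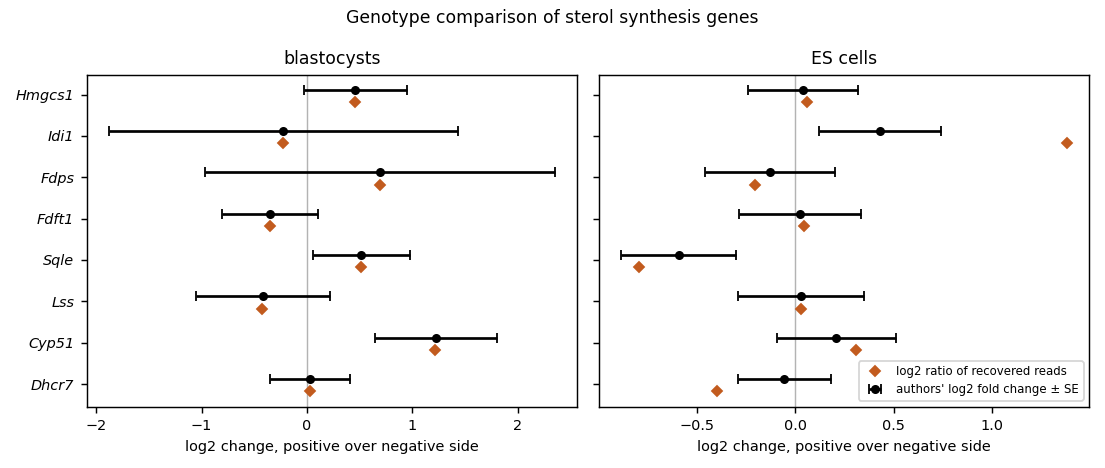
Authors' log2 fold change with its SE (black) and the log2 ratio of the recovered reads (orange diamonds) for the 8 genes in blastocysts and ES cells, positive over negative side; horizontal axes differ. SEs reach 1.66 for Fdps in blastocysts, and the ES ratio for Idi1 is 1.38 where the authors' shrunken value is 0.43.

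Levels of the 8 genes were compared with each other per kilobase of annotated exon. In blastocysts Sqle had the highest level, 88.8 normalised reads per kilobase averaged over all libraries, at the 88.2 percentile of 12879 genes listed in both tables. Hmgcs1 followed with 65.6, Dhcr7 with 51.1, Cyp51 with 40.4, Fdft1 with 37.8 and Lss with 15.95 reads per kilobase. Idi1 with 6.38 and Fdps with 3.77 came last, at the 36.5 and 30.3 percentiles. Each gene's range over the 6 libraries overlapped that of the next in this order, so no neighbours were separated beyond their spread. Fdft1 did exceed Lss in 6 of 6 libraries, although the length used for Lss, 10787 bases over all its transcripts, lowers its value.

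In ES cells the order was Hmgcs1 with 25.9 normalised reads per kilobase, then Cyp51 with 19.8, Sqle with 14.6, Fdft1 with 14.0, Fdps with 7.77, Lss with 4.39, Idi1 with 2.95 and Dhcr7 with 0.58. The ranges of Fdft1 and Fdps, and likewise of Idi1 and Dhcr7, did not overlap over the 4 libraries, while those of the other neighbours did. Hmgcs1 nevertheless exceeded Cyp51 in 4 of 4 libraries. The level of Fdps is uncertain because of the exon bases it shares with Gm43738. Dhcr7 showed the widest shift in rank between materials, from the 78.8 percentile of the shared genes in blastocysts to the 2.38 percentile in ES cells. Sqle went from the 88.2 to the 60.3 percentile. All 13009 genes listed for ES cells had a mean above 0, against 17367 of the 45706 listed for blastocysts. The shared genes were therefore all detected in ES cells, but some may be absent in blastocysts, so the percentiles have unlike floors. Materials differ in library protocol and were normalised apart, so these percentiles are a description with no test, and the part of the protocol in them was not tested.

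The wider pathway was read from 4 further lists. Of 12 other sterol synthesis enzymes, such as the kinase Mvk, 0 were called in either material, adjusted or unadjusted. In blastocysts 3 were positive and 9 negative, with a median log2 fold change of -0.24. In ES cells 9 were positive and 3 negative, with a median of 0.25. In blastocysts the sign of the median was opposite to that of the 8 members.

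Among 11 genes of sterol sensing and SREBP control, 0 passed the adjusted test in either material. Insig1, the endoplasmic reticulum protein that holds back SREBP and is itself a known SREBP target, was the only 1 called at an unadjusted p in blastocysts, where 6.21% of all tested genes were called, so 1 of 11 is near that share. It had 138, 276 and 770.2 normalised reads on the positive side against 69.3, 196 and 106. Positive library 3 was the highest by far, and positive library 1 lay between the negative libraries. The log2 fold change was 1.67 (SE 0.60, unadjusted p = 0.00533, DESeq2 adjusted p = 0.476). In ES cells Insig1 had 52.7 and 63.2 against 44.7 and 39.6 normalised reads, a log2 fold change of 0.30 (SE 0.31, DESeq2 adjusted p = 1.00). Srebf2, which encodes SREBP2, had log2 fold changes of 0.43 in blastocysts (SE 0.46) and 0.14 in ES cells (SE 0.26).

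For uptake, trafficking, esterification and efflux, 17 of 18 genes were tested in blastocysts and 0 were called, with a median of 0.05, while Lipa was listed at 0. In ES cells 16 were tested, 0 passed the adjusted test and 2 were called unadjusted, where 5.62% of all tested genes were. Abca1, the transporter that exports cholesterol, had 340.1 and 288 normalised reads on the positive side against 489 and 621 (log2 fold change -0.71, SE 0.23, unadjusted p = 0.00196, DESeq2 adjusted p = 0.207). Soat1, which esterifies cholesterol for storage, had 80.6 and 149 against 77.0 and 40.6 (log2 fold change 0.65, SE 0.31, DESeq2 adjusted p = 0.819). Abca1 thus lay lower and Soat1 higher in every positive library than in every negative one, a separation that 40.4% of tested genes showed. Negative library 2, with the high fibroblast genes, had the highest Abca1, and the part of those genes in the result was not tested. In blastocysts the same genes had log2 fold changes of -0.13 for Abca1 and 0.78 for Soat1, with adjusted p of 0.997 and 0.811 (DESeq2).

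Fatty acid synthesis is driven mainly by SREBP1 and served as a neighbouring pathway. In blastocysts 10 of its 11 genes were tested and 0 were called, with a median log2 fold change of -0.07. In ES cells 9 of 10 tested genes were negative, with a median of -0.33. Of these, 0 passed the adjusted test and 3 were called unadjusted, beside 0.261% and 5.62% of all tested genes. Me1, which supplies NADPH, had 73.4 and 40.8 normalised reads against 102 and 140.1 (log2 fold change -0.76, SE 0.30, DESeq2 adjusted p = 0.528). Scd1, a desaturase, had 37.5 and 25.0 against 59.9 and 76.3 (log2 fold change -0.71, SE 0.32, DESeq2 adjusted p = 0.708). Fasn, the fatty acid synthase, had 343 and 306 against 479 and 474 (log2 fold change -0.48, SE 0.22, DESeq2 adjusted p = 0.761). All 3 lay lower in both positive libraries than in either negative library, as did the sides of 40.4% of tested genes in one direction or the other. The fibroblast genes summed to 271 in negative library 1 and 1575 in negative library 2, and their part in these values was not tested.

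**Figure D5:**
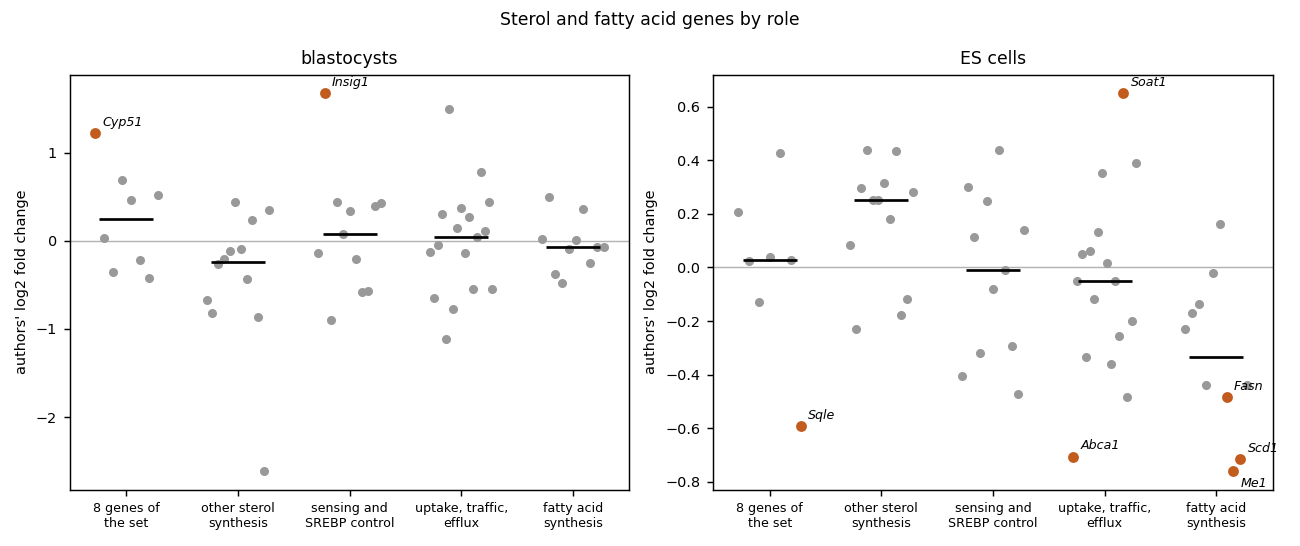
Authors' log2 fold change (vertical axes, different in the panels) of each tested gene in 5 groups of sterol and fatty acid genes, with the group's median as a bar and genes at an unadjusted p under 0.05 in orange with their names. Cyp51 and Insig1 are named in blastocysts, and Sqle, Abca1, Soat1, Me1, Scd1 and Fasn in ES cells, none with an adjusted p under 0.05.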

How the data were processed

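RNA of blastocysts and ES cells was sequenced. Per the submitters' processing notes, STAR 2.4.0b, featureCounts (Subread 2.0.1), bedtools, SAMtools and DESeq2 1.34.0 were used with GRCm38. Per the file headers, the tables are DESeq2 results. The signal column holds the authors' mean of normalised counts over libraries. Fold changes and their standard errors are on the log2 scale, per the file headers. A Wald statistic computed by the authors is the score. The p-value columns hold the authors' p-value and adjusted p-value. Counts per sample were assumed in the planned design, with the authors' statistics as fallback, which was used with a threshold of 0.05.

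Because each mean adds up whole reads that weigh the same within a library, the weights and the reads behind each mean were solved for. In blastocysts, where several solutions existed, the reads that gave back the authors' log2 fold change and standard error were kept. Reads were solved for 99.6% of 16178 blastocyst genes and 100% of 12862 ES cell genes searched. Libraries were placed on a side by the sign of the authors' fold changes they go with, so the limma comparison (limma 3.58.1, trend, log2 of normalised reads plus 1, mean of at least 1) is not independent of the authors' fit. The method was tested on simulated data. Without molecular identifiers, reads amplified from 1 molecule are counted repeatedly. Exon lengths, overlaps and near-identical copies came from GENCODE M21, with BLAST 2.17.0. No per-sample columns were left aside (0).

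The 8 members and the gene and marker lists were chosen with earlier results of these data known. Named genes are the members, Dis3l, and list genes with an unadjusted p under 0.05 (at most 5 per list and table). Srebf2, Mvk and the overlapping copies were named outside that rule. Some genes of the planned lists are not reported here and were left out of the lists' counts and medians.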

Additional observations from a re-analysis of the deposited data

How the results depend on the processing

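The count of called members stayed at 0 in both materials with an adjusted p under 0.01, adjustment over every gene with a p-value, genes with a mean of at least 50, autosomal genes, rescaled Wald statistics, limma, and limma without any 1 library. The limma settings were chosen after seeing the data. An unadjusted p under 0.05 gave a count of 1 for each material. For the median log2 fold change of the 8 genes, the settings were centring on all tested genes, the mean, recovered reads and leaving out each library. The median in blastocysts ran from -0.003 to 0.67 when each library was left out in turn. In ES cells it ran from -0.22 (without positive library 2) to 0.23 (without positive library 1), around 0.03, and the mean of the 8 genes was -0.01. Leaving out 1 library turned the sign of the log2 ratio of reads in 14 cases, 6 in blastocysts and 8 in ES cells. Without a library, blastocyst ratios ran from -0.19 to 0.13 for Dhcr7, from -1.57 to 0.36 for Idi1 and from -0.97 to 0.32 for Lss. ES cell ratios ran from -0.20 to 0.68 for Cyp51, from -0.24 to 0.28 for Fdft1, from -0.81 to 0.22 for Fdps, from -0.17 to 0.32 for Hmgcs1 and from -0.45 to 0.42 for Lss. The cause was not tested. Where an ES side keeps 1 library, limma assumes that it varies like the other side. No paired analysis was possible because the recovered libraries carry no replicate number. Count tests by edgeR or DESeq2 on labelled samples were not run, since the tables hold no value per sample. Depth limits Idi1 and Fdps in blastocysts and Dhcr7 in ES cells.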

Other observations

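The whole reads behind the blastocyst means were mostly even numbers. Of 67390 values above 0 over all solved genes and libraries, 95.9% were even, and for the 8 sterol synthesis genes 41 of 45 were, or 91.1%. In ES cells 49.6% of 50824 values were even, and 17 of 32 for the 8 genes. The exceptions among the 8 genes in blastocysts were 3 values of Fdps and 1 of Fdft1. What gives the even numbers was not tested.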
